A study of Mus musculus with 12 samples.

Results

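The immediate early and AP-1 factors examined here are 10 mouse transcription factor genes: Fos, Fosl1, Fosl2, Jun, Junb, Jund, Atf3, Egr1, Myc and Klf6. They were chosen by name, with earlier results of these data known. Their rows were found by Entrez identifier in a table of read counts for 13124 genes. All 10 of 10 were present. Of them, Fosl1 and Atf3 passed the abundance filter of that table through the isotype kidneys alone, so a high level of these 2 genes in that group was a condition of their being listed. Counts and medians over the 10 genes include them and are descriptions, as are the calls of these 2 genes in comparisons with isotype.

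RNA was sequenced from 12 whole, saline-perfused kidneys of male C57BL/6 mice taken 24 h after surgery, with 3 kidneys in each of 4 groups. Kidneys 7 to 9 underwent unilateral warm ischaemia-reperfusion injury (IRI) after the antibody VR81 against the granulocyte colony-stimulating factor receptor (anti-G-CSFR). Kidneys 10 to 12 underwent IRI after the antibody BB5.1 against complement protein C5 (anti-C5), and kidneys 4 to 6 underwent IRI after an isotype control antibody. Antibodies were given 24 h before IRI. Kidneys 1 to 3 came from untreated sham-operated mice, so isotype against sham joins the injury with the injection of an antibody. The labels do not say whether the sampled kidney of an injured mouse was the operated one. Between 13200930 and 16324215 counts were assigned per kidney. Levels are CPM, read counts scaled to a common library size with TMM factors, and "rose" and "fell" are used of genes with a Benjamini-Hochberg adjusted p below 0.05 over the 13124 genes in edgeR's quasi-likelihood test.

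AP-1 is a family of dimers in which a FOS protein pairs with a JUN protein, or JUN proteins pair with each other or with ATF proteins, and binds short DNA elements. Many of its genes are immediate early genes, which need no new protein to be switched on after growth factors, stress or reoxygenation, and whose messenger RNAs are mostly short-lived. EGR1, MYC and KLF6 belong to other protein families and are switched on by many of the same signals. In the kidney, several of these genes are long known as early markers of tubular injury.

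In ischaemic kidneys under isotype antibody all 10 genes rose against sham, and in ischaemic kidneys under either blocking antibody all 10 fell against isotype. Fosl1, which is listed through the isotype kidneys alone, changed most, with 61.1 to 88.0 CPM in isotype kidneys and no read in any sham kidney. Of all genes of the table, 32.1% rose and 30.7% fell in isotype kidneys compared with sham. Compared with isotype, 32.0% fell and 31.5% rose under anti-G-CSFR, and 29.8% fell and 30.5% rose under anti-C5. The 10 genes had a median log2 change of 2.54 for isotype against sham, beside 0.03 over all genes. Against isotype their median was -2.29 with anti-G-CSFR, beside -0.02, and -2.02 with anti-C5, beside -0.01. In each of these 3 comparisons the kidneys of the groups did not overlap for 10 of 10 genes. Groups stood apart in the same direction for 35.5% of all genes where isotype was set against sham, for 34.1% where anti-G-CSFR was set against isotype and for 31.0% where anti-C5 was. The last 2 comparisons share the isotype kidneys with the first, so they are not independent of it. These are whole-kidney levels, in which fewer cells of a type and less RNA per cell cannot be told apart.

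Because the members moved together, the sequence before their transcription starts was read from the RefSeq promoter table of GRCm38.p6, which had entries for 7 of the 10 genes. Fosl1, Egr1 and Myc had none. Shown are the 250 bases before the RefSeq start of the 4 genes with a match to an AP-1 or ATF type element, on the strand of the gene and from 5′ to 3′. Capitals mark matches on either strand to TGACATCA, a variant of the AP-1 and cAMP response elements known from the Jun promoter, to TGACGT, the core of the cAMP response element, to GGGCGG, the core of an Sp1 site, to the CCAAT box, and to the TATAAA form of the TATA box.
Fos, chr12:85473640-85473889, plus strand: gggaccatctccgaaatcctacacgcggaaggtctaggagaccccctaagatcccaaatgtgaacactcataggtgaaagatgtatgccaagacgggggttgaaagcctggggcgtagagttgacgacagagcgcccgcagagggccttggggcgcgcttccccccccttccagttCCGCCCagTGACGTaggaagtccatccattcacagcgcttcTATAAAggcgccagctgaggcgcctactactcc
Jun, chr4:95052223-95052472, minus strand: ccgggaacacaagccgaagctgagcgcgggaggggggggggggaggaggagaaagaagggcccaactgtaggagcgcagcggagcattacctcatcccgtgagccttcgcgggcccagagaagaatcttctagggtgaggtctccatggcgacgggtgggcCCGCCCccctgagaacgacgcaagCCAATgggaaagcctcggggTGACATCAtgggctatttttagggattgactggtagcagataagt
Atf3, chr1:191183334-191183583, minus strand: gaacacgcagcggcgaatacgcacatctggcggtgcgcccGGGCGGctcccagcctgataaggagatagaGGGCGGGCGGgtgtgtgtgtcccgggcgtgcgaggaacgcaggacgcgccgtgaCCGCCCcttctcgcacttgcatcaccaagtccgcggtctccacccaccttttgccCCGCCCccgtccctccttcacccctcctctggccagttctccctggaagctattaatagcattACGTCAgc
Klf6, chr13:5861239-5861488, plus strand: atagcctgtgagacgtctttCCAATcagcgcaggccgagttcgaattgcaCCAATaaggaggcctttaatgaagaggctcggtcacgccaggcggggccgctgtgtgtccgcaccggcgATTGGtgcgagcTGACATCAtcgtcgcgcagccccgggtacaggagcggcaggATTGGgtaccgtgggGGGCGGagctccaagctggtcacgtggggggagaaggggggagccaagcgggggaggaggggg

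TGACATCA stood at -45 to -38 from the start of Jun and at -119 to -112 from that of Klf6, in 2 of the 7 promoters and in 2.93% of the 32851 promoters of the table. TGACGT stood at -66 to -61 in Fos, followed by TATAAA at -33 to -28, and as its reverse complement ACGTCA at -8 to -3 in Atf3. These 2 of 7 compare with 6.47% of all promoters. TGACGT was added to the search after the sequences had been seen, and any TGACGTCA also counts as a TGACGT. The Sp1 core GGGCGG was present in 5 of the 7, namely Fos, Fosl2, Jun, Atf3 and Klf6, and in 32.7% of all promoters, and Atf3 had 5 matches, of which those starting at -180 and -176 overlap. CCAAT was present in 3 of the 7, namely Jun, Junb and Klf6, and in 33.8% of all. Klf6 had 4 of these. TATAAA was present in 1 of the 7 and in 12.4% of all. None of the 7 windows held TGACTCA (4.46% of all promoters), TGACGTCA (1.55%), the CArG box of the serum response element (1.47%), the EGR site GCGTGGGCG (0.536%) or the STAT site TTCCNGGAA (0.913%), which says only that these letters are not in these 250 bases. The RefSeq start of Atf3 lies 34706 bp from the start of the GENCODE gene model, and 7 bases of the Atf3 window and 7 of the Klf6 window lie in GENCODE exons. The RefSeq start of Fosl2 lies 671 bp from the GENCODE start, and all 250 bases of its window lie in a GENCODE exon. A match is a description of sequence, and binding was not measured.

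**Figure D1:**
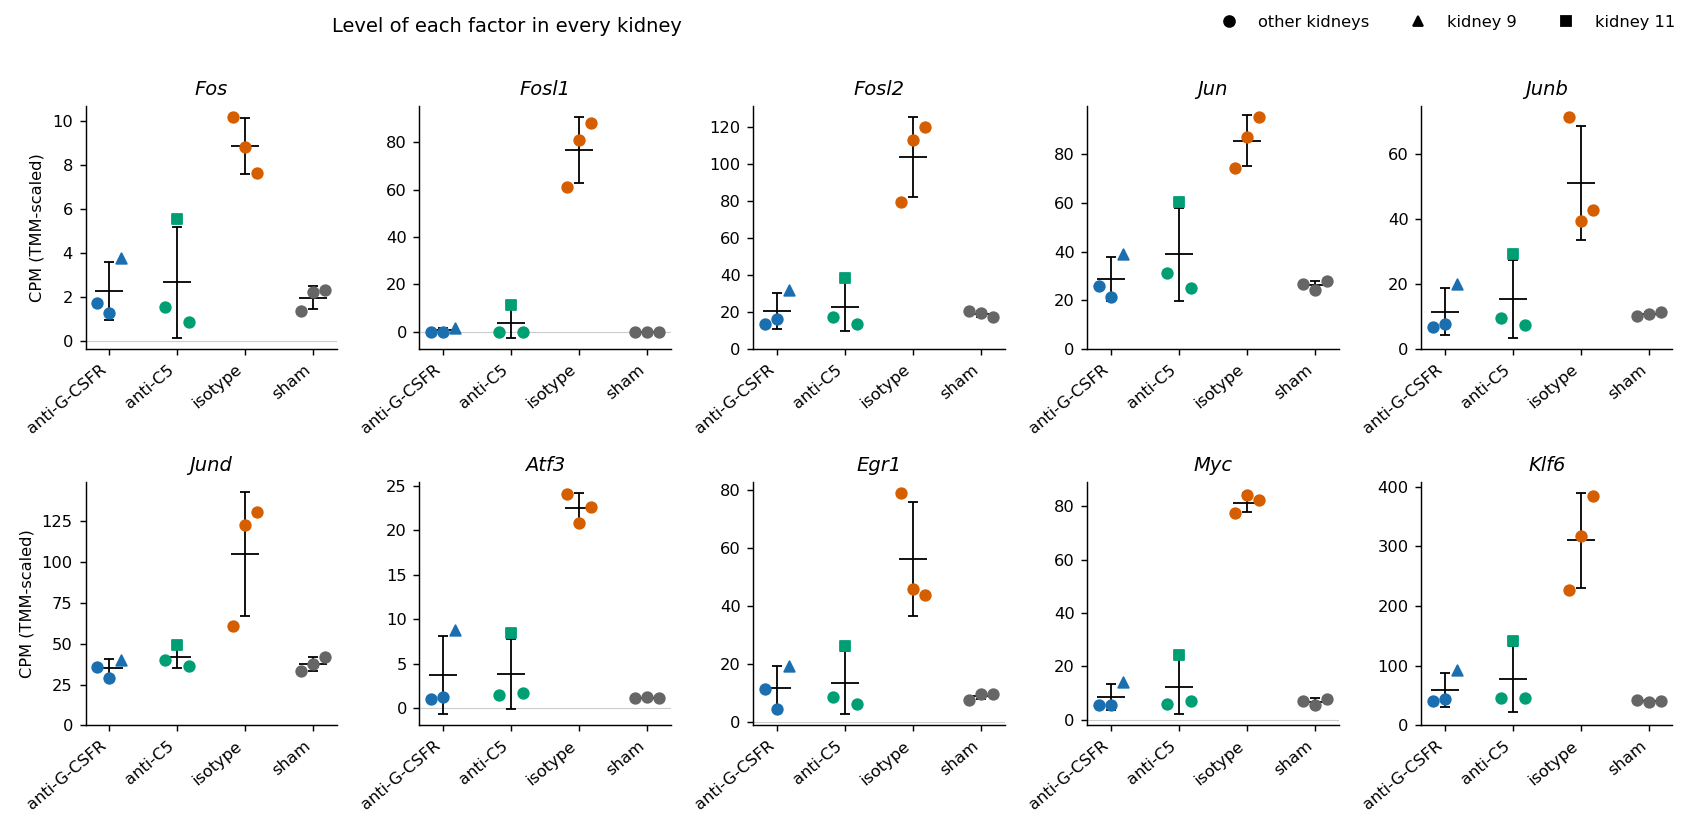
Level of each gene in CPM after TMM scaling in every kidney of the anti-G-CSFR, anti-C5, isotype and sham groups; bars show mean and SD over 3 kidneys, and triangles and squares mark kidneys 9 and 11. The isotype kidneys lie above all others in 10 of 10 panels, and kidneys 9 and 11 are the highest of their groups in 10 of 10. The share of all genes with kidneys 9 and 11 highest was not counted.

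Among the FOS genes, Fos itself (Entrez 14281, GRCm38 chromosome 12, 85473890 to 85477273, protein coding), the founding member of the family, had the lowest level per kilobase of exon in isotype kidneys. It had 1.72, 1.27 and 3.78 CPM in anti-G-CSFR kidneys, 1.55, 5.57 and 0.85 CPM in anti-C5 kidneys, 10.2, 8.85 and 7.64 CPM in isotype kidneys and 1.34, 2.21 and 2.33 CPM in sham kidneys. The 3 isotype kidneys were above all others, and those of the other groups overlapped. Fos rose in isotype against sham by a log2 change of 2.18 ± 0.548 (SE; edgeR adjusted p = 0.00443). It fell by 1.98 ± 0.544 on the log2 scale in anti-G-CSFR against isotype (edgeR adjusted p = 0.00732) and fell by 1.74 ± 0.535 in anti-C5 against isotype (edgeR adjusted p = 0.0148). Without kidney 10 the call in anti-C5 against isotype was lost, at a log2 change of -1.46 and an edgeR adjusted p of 0.0604. Its promoter, shown above, is the only one of the 7 that holds TATAAA.

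Fosl1 (Entrez 14283, chromosome 19, 5447547 to 5455946, protein coding) encodes FRA1, a FOS protein without the long activation domain of FOS that is known from invading and wound-edge epithelia. It had 0, 2 and 21 reads in anti-G-CSFR kidneys, 2, 156 and 0 in anti-C5 kidneys, 1100, 1318 and 1382 in isotype kidneys and 0, 0 and 0 in sham kidneys. In CPM these were 0.0, 0.149 and 1.59 in the anti-G-CSFR group, 0.141, 11.3 and 0.0 in the anti-C5 group and 61.1, 81.0 and 88.0 in the isotype group. Nearly all reads of the 2 blocked groups came from kidneys 9 and 11. The mean of the isotype kidneys was at least 1149-fold higher than in sham kidneys, counted against a floor of 3 reads over the sham group, or 0.0668 CPM (log2 of at least 10.17; edgeR adjusted p = 0.00094 for the difference). Such floors and bounds cover counting error alone. Since Fosl1 is listed through the isotype kidneys alone, its calls in comparisons with isotype are descriptions. Against isotype, Fosl1 fell by 7.09 ± 1.36 on the log2 scale in anti-G-CSFR (edgeR adjusted p = 0.00169) and fell by 4.32 ± 1.07 in anti-C5 (edgeR adjusted p = 0.00706). Without kidney 7 the log2 change under anti-G-CSFR was -6.46, and it was -6.66 without kidney 8. DESeq2 gave -4.34 for anti-C5 with an adjusted p of 0.106, while limma-voom gave -7.43 for anti-C5 (adjusted p = 0.000358) and -8.54 for anti-G-CSFR (adjusted p = 0.000471), so the call for anti-C5 and the size of both changes depend on the tool.

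A gene on the opposite strand, Ccdc85b, overlaps Fosl1, and whether the counting used strand is not given in the sources used here. Ccdc85b was at 6.34 to 8.77 CPM in anti-G-CSFR, 7.96 to 9.87 in anti-C5, 7.89 to 9.89 in isotype and 6.3 to 8.18 in sham kidneys. Its change in isotype against sham did not pass the test (log2 0.29, edgeR adjusted p = 0.161), and Fosl1 had no read in kidneys where Ccdc85b was counted.

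Fosl2 (Entrez 14284, chromosome 5, 32135801 to 32157842, protein coding) encodes FRA2, the FOS protein with the broadest expression in resting tissues. It had 13.7, 16.3 and 32.1 CPM in anti-G-CSFR kidneys, 17.5, 38.3 and 13.5 CPM in anti-C5 kidneys, 79.5, 113 and 120 CPM in isotype kidneys and 20.6, 19.5 and 17.4 CPM in sham kidneys. Kidneys 7, 8, 10 and 12 were within or below the sham range, and kidneys 9 and 11 above it. Fosl2 rose by 2.44 ± 0.381 (log2 ± SE; edgeR adjusted p = 0.000199) in isotype against sham. Against isotype it fell by 2.33 ± 0.38 in anti-G-CSFR (edgeR adjusted p = 0.000279) and fell by 2.17 ± 0.377 in anti-C5 (edgeR adjusted p = 0.000501), both on the log2 scale.

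The make-up of the FOS family is given as a description, since Fosl1 is listed through the isotype kidneys alone. CPM per kilobase of exon, which can be compared between genes, summed over Fos, Fosl1 and Fosl2 to 3.38 ± 2.02 in anti-G-CSFR, 5.39 ± 5.63 in anti-C5, 52.3 ± 8.56 in isotype and 2.82 ± 0.129 in sham kidneys (SD, n = 3 each). The anti-G-CSFR mean was 2.22 without kidney 9, and the anti-C5 mean was 2.14 without kidney 11. Fosl1 made up 5.63 ± 7.16% of that sum in anti-G-CSFR kidneys, 16.5 ± 26.2% in anti-C5 kidneys, 72.0 ± 1.48% in isotype kidneys and none in sham kidneys. Without kidney 9 the anti-G-CSFR share was 1.60%, and without kidney 11, which stood at 46.8%, the anti-C5 share was 1.37%. Fosl2 made up 65.8 ± 7.56% in anti-G-CSFR, 61.3 ± 24.6% in anti-C5, 20.5 ± 1.04% in isotype and 70.6 ± 7.48% in sham kidneys. Fos made up 28.6 ± 5.29%, 22.2 ± 3.32%, 7.51 ± 2.42% and 29.4 ± 7.48% in the same order of groups. Of the sum of Fos and Fosl2 alone, Fos made up 30.3 ± 5.28% in anti-G-CSFR, 28.3 ± 8.51% in anti-C5, 26.6 ± 7.16% in isotype and 29.4 ± 7.48% in sham kidneys, so the groups overlapped once Fosl1 was left out. The level per kilobase of Fosl2 was the highest of the 3 in every sham kidney and that of Fosl1 the highest in every isotype kidney. With the length of the longest transcript in place of all exons, the shares in isotype kidneys were 67.0% for Fosl1, 25.9% for Fosl2 and 7.15% for Fos. No row was found for Fosb, the remaining gene of the family, and the shares leave it out.

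**Figure D2:**
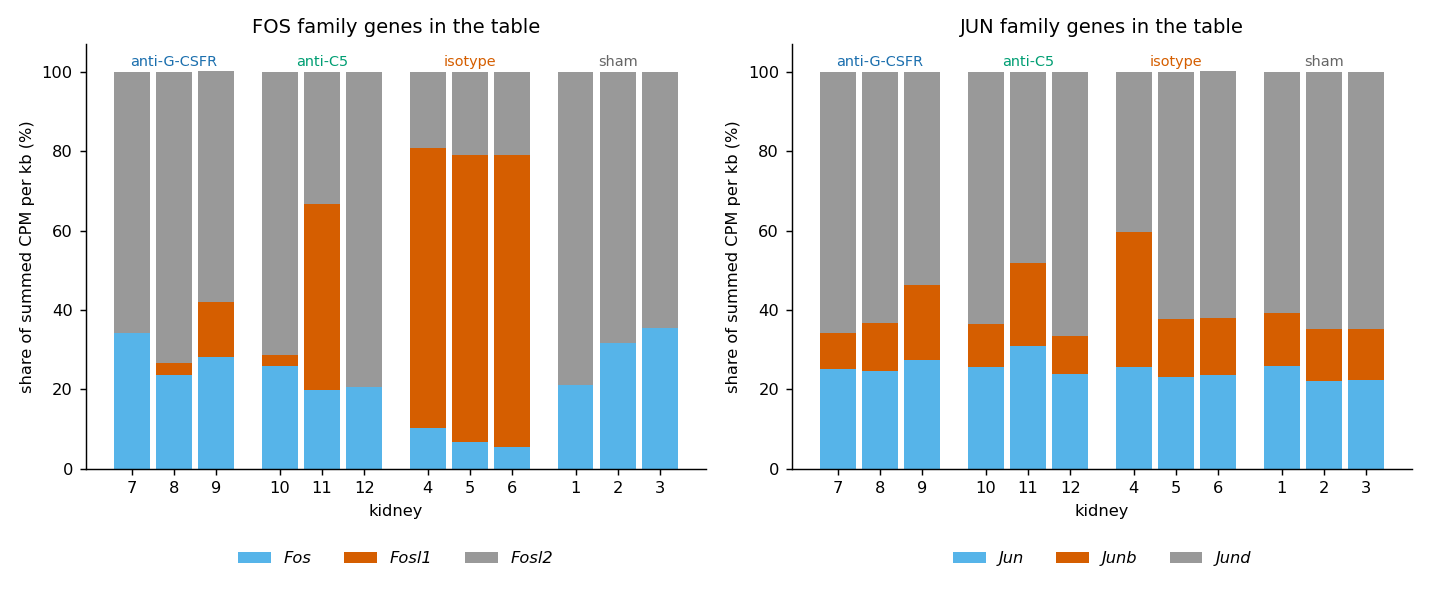
Share in percent of each gene in the summed CPM per kilobase of the FOS genes (left) and of the JUN genes (right) in every kidney, by group. Fosl1 takes 70.5 to 73.5% of the FOS sum in isotype kidneys, 46.8% in kidney 11 and 13.7% in kidney 9, while the JUN shares differ less, apart from Junb in kidney 4 at 34.1%.

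Among the JUN genes, Jun (Entrez 16476, chromosome 4, 95049034 to 95052222, protein coding, 1 exon) encodes c-JUN, the main partner of the FOS proteins. It had 26.0, 21.6 and 39.1 CPM in anti-G-CSFR kidneys, 31.1, 60.5 and 24.9 CPM in anti-C5 kidneys, 74.4, 87.1 and 95.0 CPM in isotype kidneys and 26.9, 24.3 and 27.8 CPM in sham kidneys. The isotype kidneys stood above all others, and kidney 11 lay between them and the rest. Jun rose by 1.70 ± 0.293 (log2 ± SE; edgeR adjusted p = 0.000394) in isotype against sham. It fell by 1.57 ± 0.292 on the log2 scale in anti-G-CSFR against isotype (edgeR adjusted p = 0.00068) and fell by 1.14 ± 0.287 in anti-C5 against isotype (edgeR adjusted p = 0.00502). The promoter that holds TGACATCA and CCAAT shortly before its start is shown above. The antisense gene Junos, which overlaps Jun, rose too in isotype against sham (log2 1.28, edgeR adjusted p = 0.00408), at 2.61 to 4.98 CPM in isotype and 0.959 to 2.08 CPM in sham kidneys. Without the strand setting, reads of the 2 genes cannot be told apart.

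Junb (Entrez 16477, chromosome 8, 84974484 to 84978718, protein coding) encodes a JUN protein that weakens c-JUN on many targets. It had 6.67, 7.61 and 19.8 CPM in anti-G-CSFR kidneys, 9.38, 29.2 and 7.27 CPM in anti-C5 kidneys, 71.4, 39.4 and 42.6 CPM in isotype kidneys and 10.1, 10.6 and 11.4 CPM in sham kidneys. Kidney 4 was the highest by far, and the other 2 isotype kidneys were close to each other. Junb rose by 2.26 ± 0.508 (log2 ± SE; edgeR adjusted p = 0.00224) in isotype against sham. Against isotype it fell by 2.18 ± 0.508 in anti-G-CSFR (edgeR adjusted p = 0.00285) and fell by 1.74 ± 0.496 in anti-C5 (edgeR adjusted p = 0.0098), both on the log2 scale. The opposite-strand gene Prdx2 overlaps Junb and had more reads, at a mean of 268 CPM in anti-G-CSFR, 264 in anti-C5, 177 in isotype and 219 in sham kidneys. Prdx2 rose against isotype by a log2 change of 0.60 in anti-G-CSFR (edgeR adjusted p = 0.00698) and 0.58 in anti-C5 (edgeR adjusted p = 0.00908), where Junb fell. Its change in isotype against sham did not pass the test (log2 -0.31, edgeR adjusted p = 0.115).

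Jund (Entrez 16478, chromosome 8, 70698949 to 70700616, protein coding, 1 exon) encodes the JUN protein that resting cells already make in quantity. It had 35.6, 29.1 and 40.2 CPM in anti-G-CSFR kidneys, 40.1, 49.1 and 36.3 CPM in anti-C5 kidneys, 61.1, 123 and 131 CPM in isotype kidneys and 33.2, 37.4 and 42.2 CPM in sham kidneys. Kidney 4, the highest for Junb, was the lowest isotype kidney for Jund. Jund had the smallest change of the 10 genes in isotype against sham, a rise of 1.48 ± 0.246 (log2 ± SE; edgeR adjusted p = 0.000303). It fell by 1.59 ± 0.247 on the log2 scale in anti-G-CSFR against isotype (edgeR adjusted p = 0.000209) and fell by 1.33 ± 0.245 in anti-C5 against isotype (edgeR adjusted p = 0.000741).

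Per kilobase, the JUN genes summed to 35.0 ± 9.03 CPM in anti-G-CSFR, 43.9 ± 15.1 in anti-C5, 112 ± 18.8 in isotype and 35.5 ± 3.18 in sham kidneys (SD, n = 3 each). Jund held the largest share in every kidney, at 61.0 ± 6.48% in anti-G-CSFR, 59.4 ± 9.81% in anti-C5, 54.9 ± 12.7% in isotype and 63.5 ± 2.34% in sham kidneys. Its share overlapped between the groups. Jun made up 25.7 ± 1.4%, 26.9 ± 3.71%, 24.1 ± 1.38% and 23.4 ± 2.1% in the same order, and Junb 13.4 ± 5.23%, 13.7 ± 6.13%, 21.1 ± 11.3% and 13.1 ± 0.406%. The GENCODE model of Jund used for its length begins 1210 bp after the RefSeq start, so the Jund share is less certain than the others. It may be too high, and a longer Jund model could change which share is largest in some kidneys.

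Atf3 (Entrez 11910, chromosome 1, 191170296 to 191218039, protein coding) encodes a stress-induced ATF protein that pairs with JUN proteins and represses many inflammatory genes. It had 1.06, 1.34 and 8.85 CPM in anti-G-CSFR kidneys, 1.48, 8.46 and 1.70 CPM in anti-C5 kidneys, 24.1, 20.8 and 22.6 CPM in isotype kidneys and 1.14, 1.30 and 1.16 CPM in sham kidneys. Kidneys 9 and 11 had almost the same level, 8.85 and 8.46 CPM, and the other 4 kidneys under a blocking antibody had 1.06 to 1.70 CPM. Atf3 rose by 4.22 ± 0.802 (log2 ± SE; edgeR adjusted p = 0.000761) in isotype against sham, the largest rise after that of Fosl1. Both genes are listed through the isotype kidneys alone, so this rank and their calls in comparisons with isotype are descriptions. Atf3 fell by 2.60 ± 0.711 on the log2 scale in anti-G-CSFR against isotype (edgeR adjusted p = 0.00719) and fell by 2.53 ± 0.707 in anti-C5 against isotype (edgeR adjusted p = 0.00885). The promoter shown above, with 5 GGGCGG matches and ACGTCA close to the start, is that of the inner start site.

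Egr1 (Entrez 13653, chromosome 18, 34859823 to 34864984, protein coding) encodes a zinc finger factor and is a classical immediate early gene. It had 11.6, 4.62 and 19.4 CPM in anti-G-CSFR kidneys, 8.60, 26.2 and 6.11 CPM in anti-C5 kidneys, 79.0, 46.0 and 43.8 CPM in isotype kidneys and 7.77, 9.73 and 9.73 CPM in sham kidneys. The isotype kidneys were above all others, with kidney 4 highest, as for Fos, Junb and Atf3. Egr1 rose by 2.63 ± 0.538 (log2 ± SE; edgeR adjusted p = 0.00123) in isotype against sham. Against isotype it fell by 2.25 ± 0.528 in anti-G-CSFR (edgeR adjusted p = 0.00298) and fell by 2.04 ± 0.522 in anti-C5 (edgeR adjusted p = 0.00539), both on the log2 scale.

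Myc (Entrez 17869, chromosome 15, 61985391 to 61990374, protein coding) encodes the growth regulator c-MYC, which drives ribosome production and metabolism in dividing cells. It had 5.68, 5.74 and 14.2 CPM in anti-G-CSFR kidneys, 5.78, 24.2 and 7.04 CPM in anti-C5 kidneys, 77.4, 84.2 and 82.5 CPM in isotype kidneys and 7.24, 5.51 and 7.88 CPM in sham kidneys. Its isotype kidneys were the closest to each other of any of the 10 genes, with an SD of 4.33% of the mean. Myc rose by 3.56 ± 0.494 (log2 ± SE; edgeR adjusted p = 8.85e-05) in isotype against sham. It fell by 3.26 ± 0.486 on the log2 scale in anti-G-CSFR against isotype (edgeR adjusted p = 0.000157) and fell by 2.72 ± 0.47 in anti-C5 against isotype (edgeR adjusted p = 0.00049). These were the smallest adjusted p of the 10 genes in all 3 comparisons.

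Klf6 (Entrez 23849, chromosome 13, 5861482 to 5870394, protein coding) encodes a Krüppel-like zinc finger factor known from injured epithelia. It had 41.0, 44.8 and 92.8 CPM in anti-G-CSFR kidneys, 46.7, 142 and 45.9 CPM in anti-C5 kidneys, 227, 318 and 385 CPM in isotype kidneys and 42.9, 39.3 and 40.4 CPM in sham kidneys. Sham kidneys were within 4.48% of their mean (SD), and kidneys 9 and 11 lay between sham and isotype. Klf6 rose by 2.92 ± 0.448 (log2 ± SE; edgeR adjusted p = 0.000174) in isotype against sham. Against isotype it fell by 2.38 ± 0.438 in anti-G-CSFR (edgeR adjusted p = 0.000618) and fell by 1.99 ± 0.431 in anti-C5 (edgeR adjusted p = 0.00201), both on the log2 scale. Its promoter, shown above, holds TGACATCA, GGGCGG and 4 CCAAT boxes.

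Per kilobase, Klf6 and Jund had the highest levels of the 10 genes in isotype kidneys, at 70.6 ± 18.1 and 63.1 ± 23.0 CPM (SD, n = 3). Fosl1 followed at 37.7 ± 6.87, Myc at 30.0 ± 1.3, Jun at 26.8 ± 3.26 and Junb at 22.2 ± 7.67 CPM per kilobase. Egr1, Fosl2 and Atf3 were at 12.5 ± 4.4, 10.8 ± 2.23 and 10.4 ± 0.751, and Fos was lowest at 3.79 ± 0.548. Neighbours in that order overlapped within their SD, apart from Fos, which was below Atf3 by more than the SD of either. In sham kidneys Jund was highest at 22.5 ± 2.71 and Fosl1 lowest, without a read. The gene model used for Jund begins 1210 bp after the RefSeq start. Its level per kilobase may therefore be too high, and its place in both orders is uncertain. For Fosl2 the exon length used was 9680 bp, beside 6537 bp for its longest transcript. The level of Fosl2 may be too low, and its place beside Egr1 and Atf3 is uncertain.

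**Figure D3:**
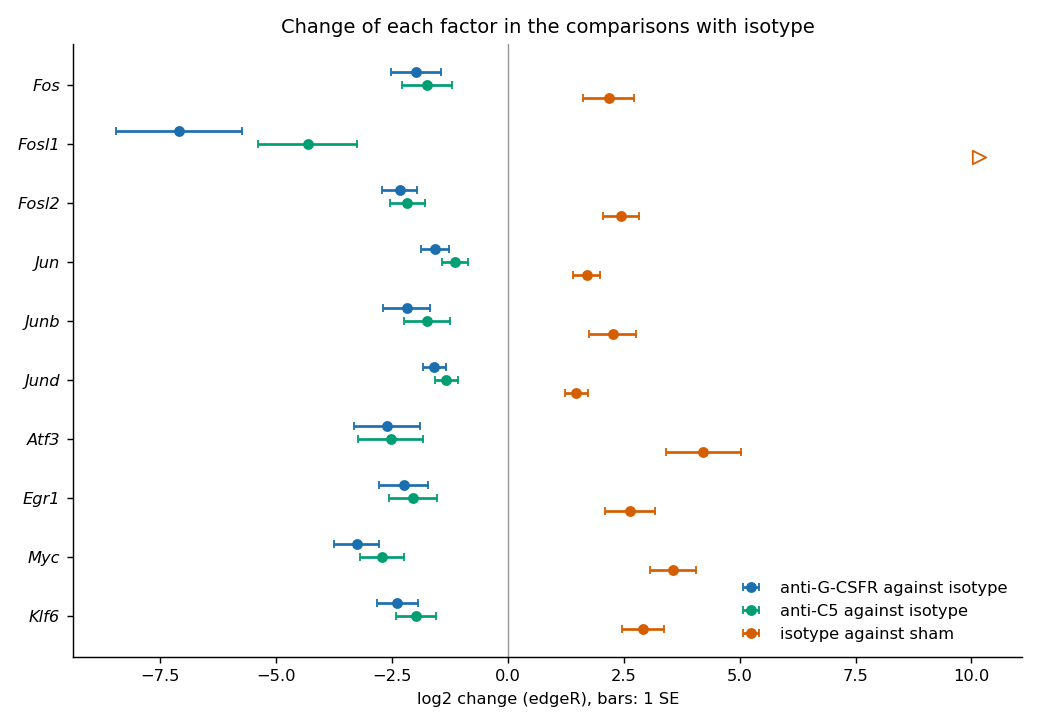
Log2 change of each gene from edgeR, with bars of 1 SE, for anti-G-CSFR against isotype, for anti-C5 against isotype, and for isotype against sham. All changes of isotype against sham are positive and all others negative; the open triangle is the lower bound of Fosl1 at 10.17.

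The blocking antibodies were also set against each other and against sham, to ask how far the 10 genes differed between the treatments and from an uninjured kidney. The mean CPM ran in the order isotype, anti-C5, anti-G-CSFR and sham for 9 of the 10 genes. For Jund sham was above anti-G-CSFR. The kidneys of the 2 blocked groups overlapped for every one of the 10 genes, beside 2.38% of all genes with all 3 anti-G-CSFR kidneys below all 3 anti-C5 kidneys. The fitted change was lower in anti-G-CSFR than in anti-C5 for 10 of 10 genes, between -0.54 and -0.07 on the log2 scale without Fosl1. None of these passed the test, and without kidney 11 the direction was reversed for 9 of the 10, all but Jund. In anti-G-CSFR against anti-C5 edgeR called 0 of 10 genes, with 0 of 10 at an unadjusted p below 0.05. Among all genes it called 0 (0.0%) and found 207 (1.58%) at an unadjusted p below 0.05, while DESeq2 called 2 and limma-voom 0.

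Against sham, anti-G-CSFR kidneys had a log2 change of -0.1 to 1.62 over the 9 genes without Fosl1, with 0 of 10 called by edgeR and 0 of 10 at an unadjusted p below 0.05. For 0 of 10 did all 3 anti-G-CSFR kidneys stand above all 3 sham kidneys, beside 9.47% of all genes. Atf3 had the largest of these, 1.62 ± 0.842 (edgeR adjusted p = 0.807), and was at 0.01 without kidney 9. Without that kidney the 9 changes lay between -0.57 and 0.08. Among all genes edgeR called 0 (0.0%) with 778 (5.93%) at an unadjusted p below 0.05, DESeq2 called 1 and limma-voom 0. A fit of the 6 compared libraries alone called 43 genes, with 0 of the 9 factor genes it tested among them. Anti-C5 kidneys had a log2 change of 0.15 to 1.69 against sham over the same 9 genes. Of the 10 genes edgeR called 0, and 2, Fosl1 and Klf6, had an unadjusted p below 0.05. Klf6 had a log2 change of 0.93 ± 0.426 (edgeR adjusted p = 0.438), which did not pass. Without kidney 11 it was at 0.18, Atf3 was at 0.40 in place of 1.69, and the 9 changes lay between -0.69 and 0.40. For Atf3 and Klf6 all 3 anti-C5 kidneys were above all 3 sham kidneys, which held for 9.36% of all genes. Among all genes edgeR called 0 (0.0%) in anti-C5 against sham, with 1487 (11.3%) at an unadjusted p below 0.05, while DESeq2 called 112 and limma-voom 0. DESeq2 gave no adjusted p for any of the 10 genes in this comparison. In no kidney under a blocking antibody did any of the 10 genes reach the lowest isotype kidney.

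Kidneys 9 and 11 were the highest of their groups for 10 of 10 genes and set much of the spread within the blocked groups. Kidney 8 also stood apart for Egr1 and Jund. For Egr1 its log2 CPM minus the sham mean was -0.95, beside 0.35 in kidney 7 and 1.09 in kidney 9. For Jund these values were -0.36 in kidney 8, -0.07 in kidney 7 and 0.1 in kidney 9. On a scale with the sham mean at 0% and the isotype mean at 100% on log2 CPM, kidney 9 (anti-G-CSFR) lay at a median of 40.2% over the 10 genes and kidney 11 (anti-C5) at 63.9%. The other 4 lay at -4.55% (kidney 7), -13.3% (kidney 8), 2.0% (kidney 10) and -3.95% (kidney 12). Kidney 11 was above all sham kidneys for 10 of 10 genes and kidney 9 for 9 of 10, the exception being Jund. The shares of all genes in these positions were not counted. Over all genes, chi-square per degree of freedom was 47.4 and 33.7 for kidney 9 against kidneys 7 and 8, beside 14.1 between those 2. For kidney 11 it was 53.7 and 65.3 against kidneys 10 and 12, beside 23.6 between those 2. Whether the place of kidneys 9 and 11 is particular to the 10 genes was not tested. Kidney 9 ranged between 7.4% for Jund and 67.4% for Atf3, and kidney 11 between 27.7% for Jund and 70.9% for Jun.

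Without kidney 9, the log2 changes in anti-G-CSFR against isotype were -2.54 for Fos, -9.91 for Fosl1, -2.77 for Fosl2, -1.82 for Jun and -2.82 for Junb. They were -1.67 for Jund, -4.20 for Atf3, -2.76 for Egr1, -3.81 for Myc and -2.83 for Klf6. Without kidney 11, the log2 changes in anti-C5 against isotype were -2.87 for Fos, -9.87 for Fosl1, -2.75 for Fosl2, -1.61 for Jun and -2.62 for Junb. They were -1.46 for Jund, -3.82 for Atf3, -2.93 for Egr1, -3.67 for Myc and -2.74 for Klf6. All 20 remained called and were larger in size than with the kidney in. The larger size was given in advance, because kidneys 9 and 11 were the highest of their groups for 10 of 10 genes.

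**Figure D4:**
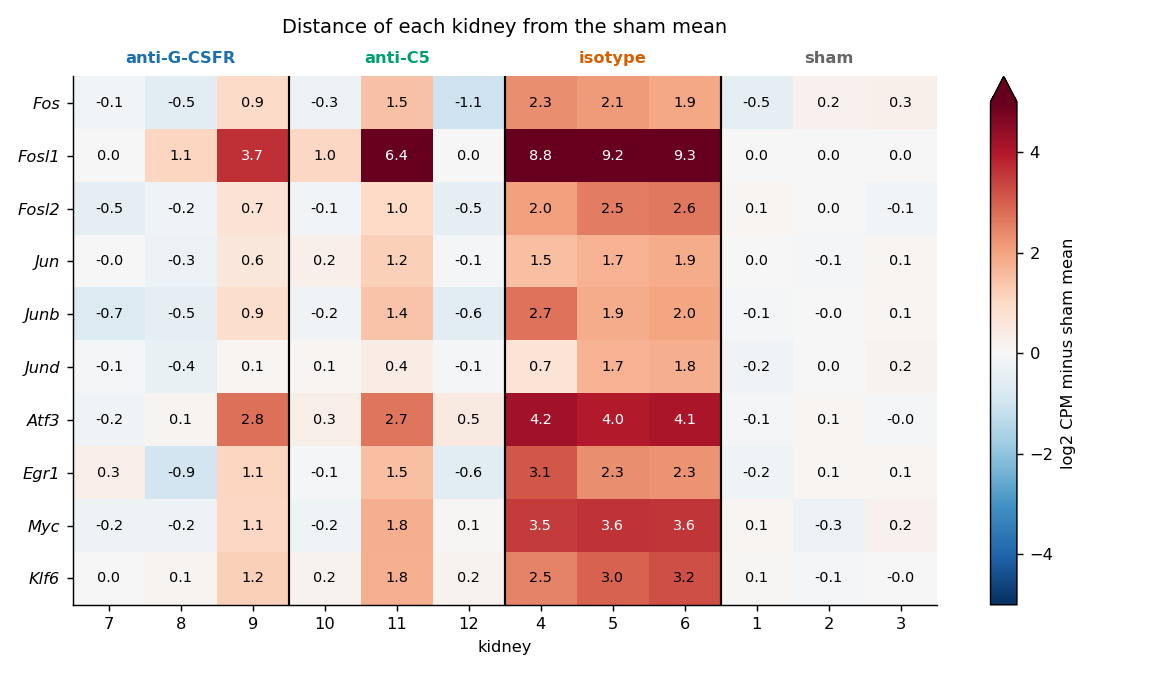
Log2 CPM of each gene (rows) in each kidney (columns, by group) minus the mean of the sham kidneys, with a prior count of 2 in the logarithm. Kidneys 9 and 11 stand out within their groups, at a median of 0.99 and 1.5 over the 10 genes, beside 2.44 to 2.6 in isotype kidneys.

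Markers of injured tubule cells (Havcr1, Lcn2, Krt20, Vcam1 and Sox9) moved with the same kidneys. Their summed level was 44.0, 71.8 and 537 CPM in anti-G-CSFR kidneys, 64.8, 1926 and 39.0 CPM in anti-C5 kidneys, 7195 to 7352 CPM in isotype kidneys and 29.4 to 48.3 CPM in sham kidneys. Of these 5 markers, 5 fell in anti-G-CSFR and 3 in anti-C5 against isotype, and 5 rose in isotype against sham. Proximal tubule markers ran the other way, at 7712 to 8944 CPM in anti-G-CSFR, 6191 to 9410 in anti-C5, 1445 to 2005 in isotype and 8843 to 10091 in sham kidneys, with 6 of 6 called in all 3 comparisons. Fibroblast and pericyte markers summed to 197 to 475 CPM in anti-G-CSFR, 235 to 688 in anti-C5, 1081 to 1246 in isotype and 223 to 306 in sham kidneys. Of the 8 neutrophil markers 6 were measured, and they summed to 1.72 to 2.71 CPM in anti-G-CSFR kidneys, with kidney 9 at 2.27 CPM. They summed to 7.19, 109 and 12.9 CPM in anti-C5 kidneys, 38.0 to 105 CPM in isotype kidneys and 7.4 to 9.72 CPM in sham kidneys. Red cell markers summed to 16.6 to 52.3 CPM in anti-G-CSFR, 8.75 to 187 in anti-C5, 7.11 to 43.9 in isotype and 19.6 to 62.7 in sham kidneys, with kidney 11 the highest and none of 4 called in these 3 comparisons. Of the loop and distal tubule markers 4 of 5 fell in isotype against sham, as did 4 of 5 collecting duct markers, and 4 of 5 of each rose against isotype under either antibody. Of the podocyte markers 4 of 5 fell against isotype under either antibody, and of the endothelial markers 3 of 6. Beside these marker counts, 32.1% of all genes rose and 30.7% fell in isotype against sham. Against isotype 32.0% fell and 31.5% rose in anti-G-CSFR, while 29.8% fell and 30.5% rose in anti-C5. Monocyte and macrophage markers summed to 122 to 143, 153 to 204, 159 to 213 and 106 to 148 CPM in the same order of groups, and none of the 7 T and B cell markers had a row. No measured marker was at 0 throughout a group. How many markers passed the abundance filter through the isotype kidneys alone was not counted, so the marker counts are descriptions. The part of cell make-up in the changes of the 10 genes was not tested.

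Within the isotype group the 10 genes were split into 2 sets by the rank of kidney 4 alone. The kidneys were close for Atf3, at 24.1, 20.8 and 22.6 CPM, and for Myc, at 77.4, 84.2 and 82.5 CPM. The set of these 2 genes is therefore uncertain. Kidney 4 was the highest of the 3 for Fos, Junb, Atf3 and Egr1 and the lowest for Fosl1, Fosl2, Jun, Jund, Myc and Klf6. Jund showed the widest range, 2.15-fold between the highest and lowest isotype kidney, and Myc the narrowest, 1.09-fold. Kidney 4 also had the highest total of counts, 16324215, and the part of depth in this split was not tested. Over all genes, too, kidney 4 stood apart. Its chi-square per degree of freedom was 46.1 against kidney 5 and 48.4 against kidney 6, beside 5.45 between kidneys 5 and 6. Whether the split is particular to the 10 genes was not tested.

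Genes with the most similar pattern were found by the root mean square difference in log2 CPM over the 12 kidneys, each gene centred on its sham mean. Fos was closest to another of the 10, Junb, at 0.29, and then to Sbno2 at 0.30. The median over all genes was 1.26 for both Fos and Junb. Fosl1 was closest to Krt20, the keratin of stressed tubules, at 0.56, and to Sprr2f at 0.70, beside a median of 5.05. Sprr2f belongs to a family of near-identical genes, and its counts are uncertain. Krt20 had 1.92, 2.76 and 14.3 CPM in anti-G-CSFR kidneys, 1.27, 98.8 and 1.39 CPM in anti-C5 kidneys, 607, 1258 and 1331 CPM in isotype kidneys and 1.61, 0.779 and 0.753 CPM in sham kidneys. Like Fosl1, it was lowest in kidney 4 among isotype kidneys and high in kidneys 9 and 11. Fosl2 was closest to F2r and Mvp, both at 0.16, and Jun to Cebpb at 0.11, itself a bZIP factor gene. Junb was closest to Lhfpl2 at 0.22 and Rrad at 0.23, and Jund to Pax8, a kidney lineage factor gene, at 0.12 and B4galt6 at 0.15. Atf3 was closest to Spp1, which encodes osteopontin, at 0.31 and Sprr1a at 0.32, and Egr1 to Rrad and Csf1, both at 0.32. Myc was closest to Pdlim7 at 0.20 and Cldn4 at 0.24, and Klf6 to Ripk3 at 0.22 and Plp2 at 0.23. Atf3 had no member closer than Myc, at 0.67, and Fosl1 none closer than Atf3, at 2.79.

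Genes around the 10 factors were described from 9 lists holding 169 different measured genes, of which 6 stand in more than 1 list. The lists, too, were chosen with earlier results of these data known. How many list genes passed the abundance filter through the isotype kidneys alone was not counted. For such genes a high level in that group was a condition of being listed, so the list counts are descriptions. The counts of all lists stand beside these shares of all genes. In isotype against sham 32.1% rose and 30.7% fell. Against isotype 32.0% fell and 31.5% rose in anti-G-CSFR, and 29.8% fell and 30.5% rose in anti-C5. Of 25 other immediate early genes, 21 rose and none fell in isotype against sham, with a median log2 change of 1.18. Of the same 25, 22 fell in anti-G-CSFR and 19 in anti-C5 against isotype, and none rose. Plk3, a stress kinase gene, averaged 6.35 ± 1.56 CPM in anti-G-CSFR, 9.87 ± 6.5 in anti-C5, 70.8 ± 29.4 in isotype and 4.81 ± 1.19 in sham kidneys (SD, n = 3 each). Of 20 other bZIP genes, 12 rose and 2 fell in isotype against sham. Atf4, of the integrated stress response, was at 197 ± 22.9 CPM in isotype and 81.1 ± 8.82 CPM in sham kidneys, while Maf fell, at 41.6 ± 5.29 CPM in isotype and 118 ± 17.7 CPM in sham kidneys.

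Of 31 genes of the MAP kinase cascade and its SRF and ELK factors, 22 rose and 3 fell in isotype against sham, with a median log2 change of 0.46, and 20 fell and 2 rose in anti-G-CSFR against isotype. With anti-C5, 18 fell and 2 rose against isotype. Map2k6, an activator of p38 kinases, fell by 2.00 on the log2 scale in isotype against sham (edgeR adjusted p = 1.95e-05), and Mapk14, which encodes p38 alpha, fell by 0.72 (edgeR adjusted p = 3.73e-05). Of 17 feedback inhibitors 15 rose and 1 fell in isotype against sham, and 15 fell and 1 rose against isotype under either antibody. Dusp5, a nuclear ERK phosphatase gene, was at 0.785 ± 0.509 CPM in anti-G-CSFR, 2.04 ± 2.12 in anti-C5, 17.1 ± 1.5 in isotype and 0.732 ± 0.114 in sham kidneys. At these levels Dusp5 passed the abundance filter through the isotype kidneys alone, so its values are a description. Dusp9 ran against the rest, at 2.85 ± 0.761 CPM in isotype and 17.4 ± 1.58 CPM in sham kidneys.

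Of 22 textbook AP-1 target genes, 18 rose and 2 fell in isotype against sham, with a median log2 change of 3.25. Against isotype 17 fell and 2 rose in anti-G-CSFR, and 14 fell and 2 rose in anti-C5. Mt1, a metallothionein gene, was at 84.7 ± 21.8 CPM in anti-G-CSFR, 112 ± 61.9 in anti-C5, 944 ± 339 in isotype and 53.8 ± 10.4 in sham kidneys. Ccnd1 and Mmp13, which are AP-1 targets in cultured cells, fell in isotype against sham by 0.68 and 1.94 on the log2 scale (edgeR adjusted p = 0.00078 and 0.00132). Of 12 genes of the MYC, MAX and MXD network, 3 rose and 3 fell in isotype against sham. These are smaller shares than the 32.1% and 30.7% of all genes. Mxi1, a MYC antagonist gene, fell by 1.01 on the log2 scale (edgeR adjusted p = 9.18e-05). Of 24 textbook MYC target genes, 18 rose and 5 fell, with Npm1, which encodes a nucleolar protein, at 450 ± 43.2 CPM in isotype and 174 ± 11.2 CPM in sham kidneys. The count of 5 was 3 without kidney 3, 5 or 6. Against isotype, 17 MYC targets fell and 5 rose under either antibody, and the 5 were 2 to 3 without kidney 5, 6, 7 or 8 for anti-G-CSFR and 3 without kidney 5, 6 or 10 for anti-C5. Of 12 other KLF genes, 8 rose and 2 fell in isotype against sham, and without kidney 6 the count of rises was 5. Klf15, a gene of podocytes and metabolism, fell by 2.15 on the log2 scale (edgeR adjusted p = 1.47e-05). Of 12 EGR1 regulators and textbook targets, 11 rose and 1 fell in isotype against sham, and the fall was not called without kidney 3 or 5. Against isotype 11 of these 12 fell and 1 rose in anti-G-CSFR, and 10 fell and 1 rose in anti-C5. The count of 10 was 5 without kidney 10 and 6 without kidney 12. The rise was not called without kidney 5 or 8 in anti-G-CSFR, nor without kidney 5, 6, 11 or 12 in anti-C5.

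**Figure D5:**
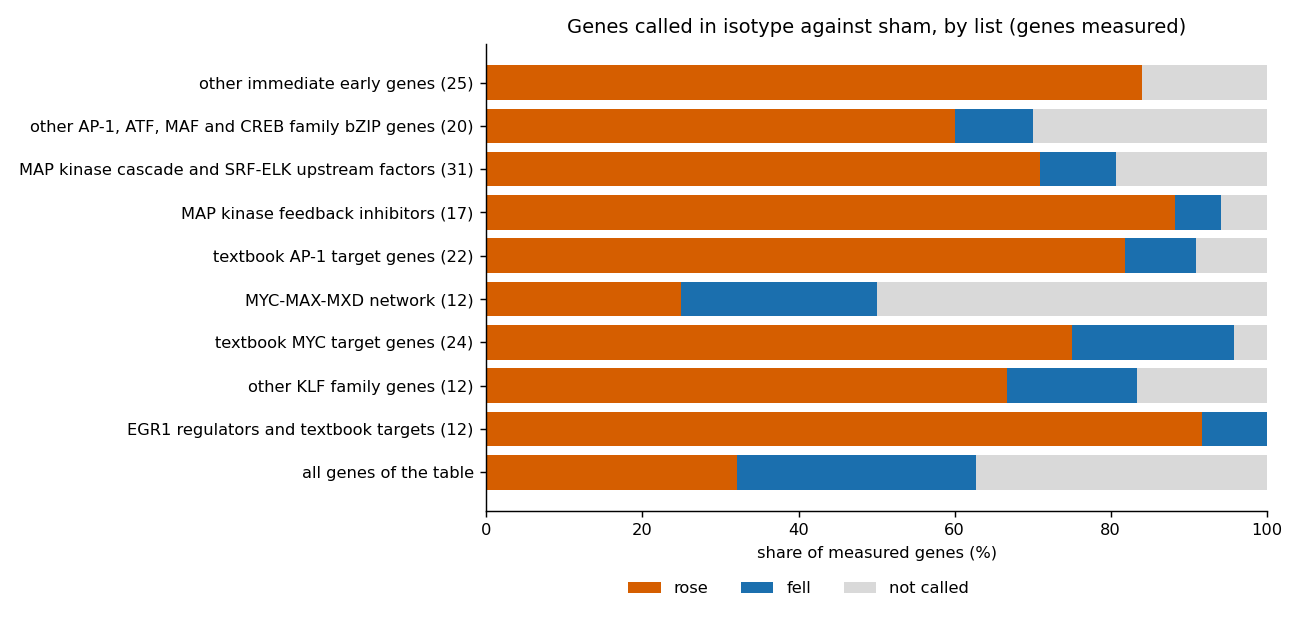
Share in percent of the measured genes of each list that rose, fell or were not called in isotype against sham, with the number measured in brackets and all genes of the table in the lowest bar. Other immediate early genes had 21 of 25 called higher, and the MYC, MAX and MXD network had as many genes lower as higher, 3 of 12 each.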

How the data were processed

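Strand-specific single-end libraries were made from 12 kidneys, per the labels' protocols. Alignment used TopHat2 2.1.0, Bowtie2 2.2.5 and the build GRCm38.p4, and counting used featureCounts, per the submitters' processing notes. For featureCounts, the version, strand setting and annotation were not given in the sources used here. Raw read counts per Entrez gene were deposited by the authors. Every gene reached at least 2.01 CPM in its third-highest library, so a filter near 2 CPM in 3 libraries had been applied, as read from the values.

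Groups came from the labels. No 2 kidneys of a group agreed within sampling noise (chi-square per degree of freedom at least 5.45), and each counted as 1 replicate. The test was that of edgeR 4.0.16, run in R 4.3.3 (TMM, robust quasi-likelihood fit over all 12 libraries, 8 residual degrees of freedom), with Benjamini-Hochberg adjustment over the 13124 genes and a threshold of 0.05. The biological coefficient of variation was 16.4% over all genes, and edgeR's own filter removed none. In simulated counts 100 genes were changed at each fold. The fit called 77 to 88% of genes changed 2-fold and 97 to 100% of those changed 4-fold over the 6 comparisons. Recovery of the factor genes themselves was not tested, so these shares do not carry over to them. In anti-C5 against sham their SE ran from 0.245 (Jund) to 0.838 (Atf3) on the log2 scale, without Fosl1. Klf6, at 0.93 ± 0.426 there, was not called (edgeR adjusted p = 0.438).

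Coordinates and exon lengths came from GENCODE vM21 (GRCm38), symbols (13074 genes) and promoters from RefSeq tables of GRCm38.p6. The 10 genes, the 9 lists and the tests were chosen with earlier results of these data known. Beside the 10 genes, the rule named, per list, the 3 genes with the smallest p in isotype against sham and up to 3 called against the majority, and the 2 most similar genes per factor. The text prints some and summarises the rest. Some named genes are not reported here. Alternatives were RLE factors, library totals, other filters, DESeq2 1.42.0, limma-voom (limma 3.58.1), a fit without the robust option, the compared libraries alone, each kidney left out, and kidneys 9 and 11 left out together. Added once the data had been seen: the longest transcript as length, kidneys left out for the family sums and shares, the share of Fos without Fosl1, and the TGACGT search.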

Additional observations from a re-analysis of the deposited data

How the results depend on the processing

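Over 621 values of the 10 genes under the alternatives in the 3 comparisons with isotype, 619 kept direction and call, 2 lost the call (Fos without kidney 10 and Fosl1 with DESeq2, both in anti-C5 against isotype) and 0 reversed. Many of these values could hardly differ. The filter of edgeR removed no gene, so the fit without it repeated the main values. Leaving out a kidney from outside a comparison left its log2 changes almost the same. A filter at a mean log2 CPM of at least 2 left 7 of the 10 genes, without Fos, Fosl1 and Atf3. With library totals alone the median over all genes was 0.2275 (log2) for isotype against sham, and against isotype it was -0.2332 for anti-G-CSFR and -0.1937 for anti-C5. The calls higher and lower then numbered 5586 and 3095, 3107 and 5554, and 3106 and 5111, beside 4207 and 4034, 4137 and 4197, and 4006 and 3913. No paired analysis was possible because each kidney number occurs in 1 group alone.

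Genes called in the comparisons without isotype were 2 with DESeq2 in anti-G-CSFR against anti-C5, 1 with DESeq2 and 43 with the 6 compared libraries in anti-G-CSFR against sham, and 112 with DESeq2 in anti-C5 against sham, where edgeR called 0. The cause was not tested.

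Directions reversed in these 3 comparisons alone, where none of the 10 genes was called. In anti-C5 against sham DESeq2 gave them no adjusted p. In anti-G-CSFR against anti-C5, limma-voom gave 0.02 for Fos, and leaving out kidneys 9 and 11 together gave 0.32 for Fos and 0.16 for Egr1 (log2). Leaving out 1 kidney at a time gave -0.82 to 0.88 for Fos, -5.6 to 2.78 for Fosl1, -0.62 to 0.41 for Fosl2, -0.69 to 0.04 for Jun and -1.09 to 0.44 for Junb. It gave -1.68 to 1.21 for Atf3, -0.73 to 0.68 for Egr1, -1.1 to 0.41 for Myc and -0.85 to 0.36 for Klf6. In anti-G-CSFR against sham, limma-voom gave -0.004 for Fosl2 and -0.11 for Junb. Leaving out kidneys 9 and 11 together gave -0.37 for Fos, -0.34 for Fosl2, -0.13 for Jun, -0.57 for Junb, -0.14 for Egr1 and -0.25 for Myc. Leaving out 1 kidney gave -0.37 to 0.48 for Fos, -0.34 to 0.33 for Fosl2, -0.13 to 0.3 for Jun, -0.57 to 0.36 for Junb, -0.2 to 0.01 for Jund, -0.14 to 0.76 for Egr1 and -0.25 to 0.54 for Myc. In anti-C5 against sham, leaving out both gave -0.68 for Fos, -0.30 for Fosl2, -0.35 for Junb, -0.29 for Egr1 and -0.10 for Myc. Leaving out 1 kidney gave -0.69 to 0.86 for Fos, -0.31 to 0.54 for Fosl2, -0.36 to 0.85 for Junb, -0.3 to 0.94 for Egr1 and -0.1 to 1.19 for Myc.

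With 3 kidneys a group, 1 time point and whole-kidney RNA, neither the cells that make these messages nor their course over time were measured. Fos and Atf3 rest on few reads outside the isotype group.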
